A study of Homo sapiens with 24 samples.

Results

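Ferritin and cellular iron handling was followed here through 9 named genes: the ferritin chains FTL and FTH1, the iron chaperone PCBP1, the ferritin cargo receptor NCOA4, the iron importers TFRC and SLC11A2, the exporter SLC40A1, and the iron regulatory proteins ACO1 and IREB2. The set was selected on a readout, the low level of FTL with miR-133a, so every member value of miR-133a against its control is given below as a description and not as a test. Of the 9 genes, 8 were matched by gene identifier among the 29794 genes of the count tables, and all 8 passed the filter on low counts in both batches. The identifier that the annotation pairs with NCOA4 has no row under that identifier, so NCOA4 was not analysed here.

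The libraries were made from Flp-In T-REx 293 cells, a line derived from HEK293 human embryonic kidney cells, each transduced with a lentiviral vector carrying a doxycycline-inducible GFP whose intron either held a miRNA hairpin or, in the empty vector control, held none. Control and miRNA cells alike were selected in 1 mg/mL Geneticin for 6 days and then given 1 µg/mL doxycycline for 7 days, so doxycycline, GFP and Geneticin selection were common to all 9 groups. Batch 1 held empty vector, miR-1 and miR-122 cells in 2 libraries each, and batch 2 held miR-133a, miR-155 and the related miR-302a, miR-372, miR-373, each in 3 libraries, beside 3 libraries of its own empty vector, 24 libraries in all. Replicates came from 1 parent cell line and, per the paper, were transduced and kept separately. The p-values thus measure the spread between separately transduced cultures of that line. Each miRNA was compared only with the empty vector of its own batch, so the 5 comparisons of batch 2 share the same 3 control libraries. The RNA was polyA+, so mature miRNA levels were not measured in these libraries, and in bulk RNA fewer cells and less RNA per cell cannot be told apart.

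Ferritin is a hollow shell built of light (FTL) and heavy (FTH1) chains that stores iron, and the heavy chain carries the ferroxidase activity. Cells take up transferrin-bound iron through the transferrin receptor TFRC, move it out of the endosome through SLC11A2 (DMT1), hand it to ferritin with the help of PCBP1, and export it through SLC40A1 (ferroportin). ACO1 (IRP1) and IREB2 (IRP2) bind a hairpin called the iron-responsive element in several of these mRNAs, which lowers translation when the element is in the 5′UTR and stabilises the mRNA when it is in the 3′UTR.

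The 7 mature miRNAs are shown because their seed (bases 2 to 8, in capitals) decides which mRNA sites they can pair with. The sequences are those of RefSeq, and all 7 were matched by name. The last 3 share 1 seed.
miR-1: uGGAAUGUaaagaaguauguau
miR-122: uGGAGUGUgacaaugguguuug
miR-133a: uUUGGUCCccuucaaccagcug
miR-155: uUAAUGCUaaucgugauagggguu
miR-302a: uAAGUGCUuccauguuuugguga
miR-372: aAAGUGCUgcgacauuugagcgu
miR-373: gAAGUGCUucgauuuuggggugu

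Matches to these seeds were searched on the mRNA strand of each member's transcript with the longest annotated 3′UTR (hg19, with GENCODE 44 gene models lifted to that build). An 8mer pairs with bases 2 to 8 and has A opposite base 1, a 7mer-m8 lacks that A, and a 7mer-A1 lacks the match to base 8. Of 40 pairs of a member and a seed, 3 had an 8mer or 7mer-m8 in the 3′UTR, which were FTL with miR-133a, SLC11A2 with miR-155, and SLC40A1 with the seed shared by the last 3 miRNAs. The count was 6 of 40 when all annotated 3′UTRs were searched, and 6 of 40 when 7mer-A1 matches were added. The FTL 3′UTR is 144 bases long and its miR-133a 8mer, GGACCAAA, lies at chr19:49470106-49470113 on the plus strand, 23 bases before the end of the mRNA. Among 13268 tested genes with a 3′UTR, 3.47% held a miR-133a 8mer. The SLC11A2 match is a 7mer-m8 at chr12:51380654-51380660 on the minus strand, and 12.9% of 3′UTRs held an 8mer or 7mer-m8 for miR-155. Both are shown with 10 flanking bases and the match in capitals, beside a 7mer-m8 for miR-122 in the coding region of TFRC at chr3:195796381-195796387, minus strand. Of coding regions, 6.99% held an 8mer or 7mer-m8 for miR-122. For miR-155, an 8mer lies in the coding region of IREB2 (chr15:78781092-78781099, plus strand). A 7mer-m8 for it lies in that of TFRC (chr3:195789784-195789790, minus strand), and 6.83% of coding regions held either type for miR-155.
FTL 3′UTR, miR-133a 8mer: aacaagccttGGACCAAAtggaaataaa
SLC11A2 3′UTR, miR-155 7mer-m8: agcccccaaaAGCATTAttactgatac
TFRC coding region, miR-122 7mer-m8: gaggatttatACACTCCtgtgaatgga

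The iron-responsive elements of the members are shown because they are what the regulatory proteins bind. The pattern searched was C, 5 bases, CAGTGN and 5 bases able to pair with the first 5, on the mRNA strand, with the 6 loop bases in capitals below. It was found in the 5′UTR of FTL at chr19:49468598-49468614 (plus strand), of FTH1 at chr11:61735052-61735068 (minus strand) and of SLC40A1 at chr2:190445393-190445409 (minus strand), and at 4 positions in the TFRC 3′UTR between chr3:195777340 and chr3:195777872 (minus strand), of which the most upstream is printed. Of tested genes, 0.229% held the pattern in a 5′UTR and 0.906% in a 3′UTR. No match was found in SLC11A2, IREB2, ACO1 or PCBP1, which says only that these letters were not in the windows searched.
FTL: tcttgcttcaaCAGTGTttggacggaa
FTH1: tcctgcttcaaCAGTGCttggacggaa
SLC40A1: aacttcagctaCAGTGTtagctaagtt
TFRC: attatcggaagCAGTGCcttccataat

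The annotation lists 16 pseudogenes named after FTL and 25 named after FTH1, and 0 of them have a row in the count tables, so no reads were assigned to them. The read length is not given in the sources used here, and 75 bases were assumed. Of all 75-base fragments of the FTL mRNA, 11.7% had an exact copy elsewhere in the genome, against 33.7% for FTH1 and at most 0.0136% for the other 6 members analysed. With 50-base fragments the shares were 25.8% for FTL and 45.2% for FTH1. Only uniquely placed reads were counted, so the values of both chains rest on the rest of each mRNA. FTH1 overlaps BEST1, PCBP1 overlaps PCBP1-AS1, TFRC overlaps ARL8BP1, RNU7-18P and a long noncoding RNA, and IREB2 overlaps a long noncoding RNA, all on the opposite strand, and the counting was by strand. SLC11A2 overlaps a U6 small nuclear RNA gene on its own strand, where counting by strand does not separate them.

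**Figure D1:**
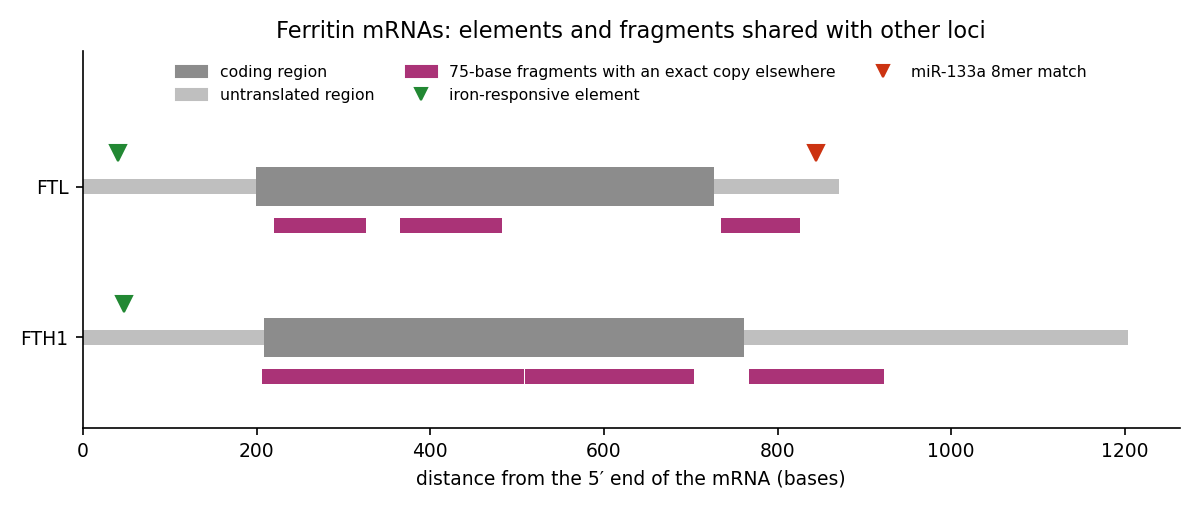
Map of the FTL (871 bases) and FTH1 (1203 bases) mRNAs, with distance from the 5′ end in bases on the x axis. Grey bars mark coding (thick) and untranslated (thin) regions, purple bars the bases covered by 75-base fragments that have an exact copy elsewhere in the genome, and triangles the iron-responsive element (green) and the miR-133a 8mer (red), which only FTL has.

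Levels are given as CPM, the read count scaled to a common library size by the TMM method, and between genes as RPKM, which also divides by exon length. In the empty vector libraries of batch 2, FTL was at 347 ± 10.96 RPKM (SD, n = 3), the rank 72 of 14054 tested genes from the top. The exons counted span 878 bases for FTL and 1679 for FTH1, over all annotated transcripts, and fragments with copies were not counted, so levels between the chains depend on both. PCBP1 followed at 156 ± 6.72 and FTH1 at 156 ± 7.61 RPKM, and these neighbours in the order did not differ beyond their spread. TFRC was at 32.5 ± 2.74, IREB2 at 19.2 ± 0.398, SLC11A2 at 8.14 ± 0.283, ACO1 at 6.12 ± 0.346 and SLC40A1 at 1.24 ± 0.238 RPKM. SLC40A1 had 41 to 184 reads a library, so its errors are the widest of the set, whereas no other member fell below 518 reads.

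Fold changes below are log2 values with their SE, and calls use edgeR's quasi-likelihood test with Benjamini-Hochberg adjustment over all genes tested in a comparison and a threshold of 0.05. With miR-1, 1 member was lower and 3 were higher of 8, where 24.5% of all tested genes were called. With miR-122, 1 of 8 was lower, where 5.92% of genes were called. With miR-133a, the contrast that chose the set, FTL alone crossed the threshold and 5.34% of genes did, and nothing is read from that count. With miR-155, 1 of 8 was lower, where 7.63% of genes were called. With miR-302a, with miR-372 and with miR-373, 0 of 8 were called by edgeR or by DESeq2, where 7.88%, 11.4% and 5.13% of genes were called. At an unadjusted edgeR p under 0.05 the counts were 0 for miR-302a, 1 for miR-372 (FTL) and 1 for miR-373 (ACO1). Over all genes, 3265, 3752 and 2487 of 14054 passed that threshold with these miRNAs, so nothing is read from the member counts.

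FTL, the light chain of ferritin, stood at 72.2, 83.5 and 77.2 CPM in the miR-133a libraries and at 303, 296 and 315 CPM in the empty vector libraries of batch 2. Every miR-133a library lay below every other library of the series, of which the lowest was at 292 CPM. The fitted log2 difference in the selected contrast was -1.97 (SE 0.149), which is 0.255 times the control level and the 4th lowest value among 14054 genes. Over 13 alternative fits it ranged from -2.03 to -1.92. The reads behind it were 964 to 1145 a library with miR-133a and 4036 to 4502 with the empty vector. COL1A1, a collagen gene that makes up nearly all of the sum of 3 fibroblast genes, was lower in the same libraries (sum 8.17 to 10.04 CPM against 11.6 to 14.9 CPM), and the sum of 4 muscle genes was higher (0.949 to 2.02 against 0.659 to 0.909 CPM). Their part in the FTL values was not tested.

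FTH1, the heavy chain, was at 270, 327 and 287 CPM with miR-133a and at 273, 248 and 264 CPM with the empty vector. These groups overlap, and the log2 difference was 0.17 (SE 0.138), again as a description of the selected contrast. The other 6 members besides the ferritin chains also lay slightly above 0 there, and over all 7 members other than FTL the log2 difference ran from 0.04 for SLC11A2 to 0.22 for PCBP1. The median log2 difference over all tested genes was 0.00.

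**Figure D2:**
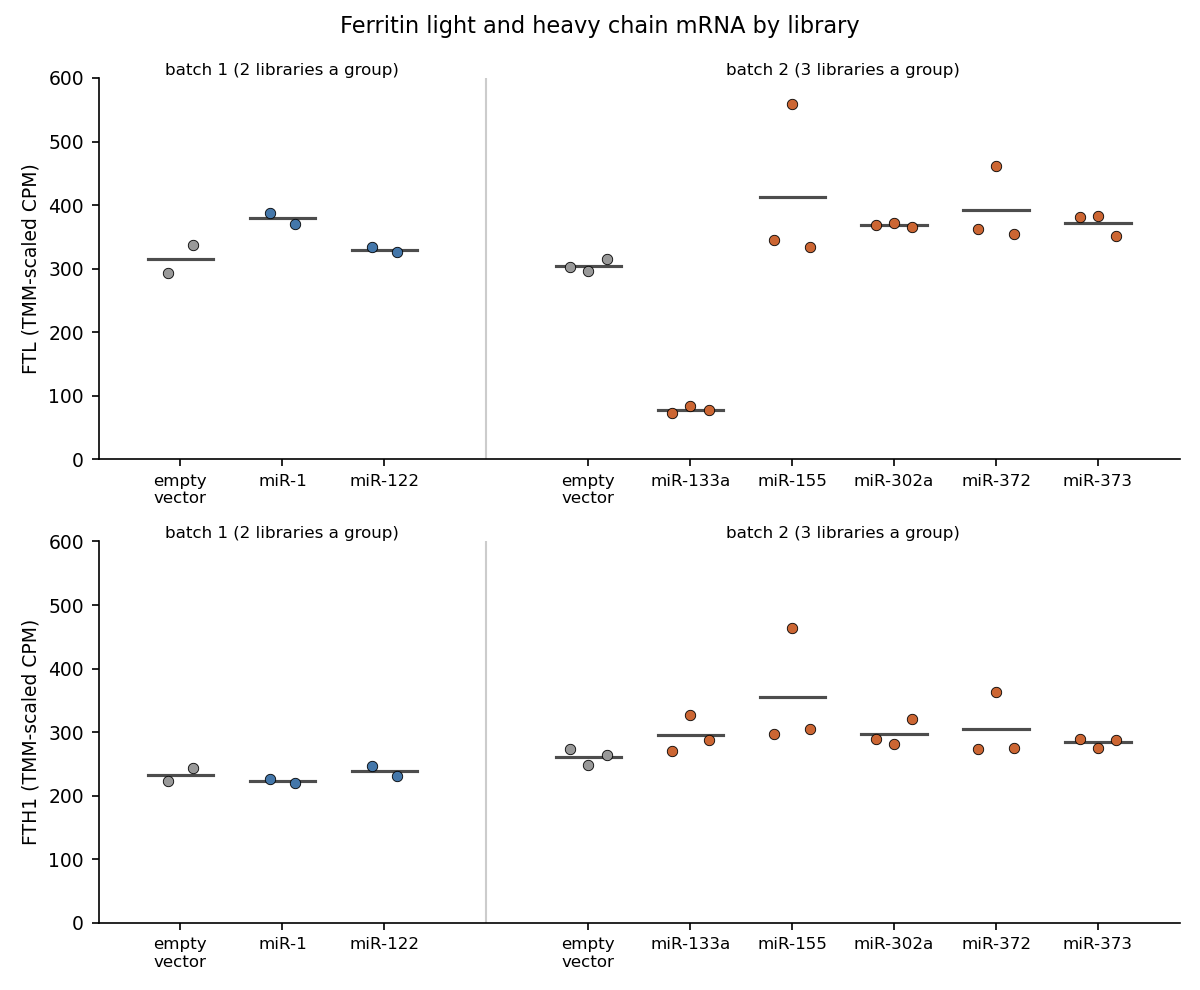
FTL (top) and FTH1 (bottom) in TMM-scaled CPM on the y axis for each library, by group on the x axis, with a line at each group mean and empty vector libraries in grey. The 3 miR-133a libraries sit between 72.2 and 83.5 CPM for FTL and within the range of the other libraries for FTH1, and miR-155 replicate 2 and miR-372 replicate 2 stand above their groups for both genes.

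The ratio of FTL to FTH1 reads, each per exon base, compares both chains within 1 library and does not depend on library scaling. It was 0.511, 0.488 and 0.515 in the miR-133a libraries and 2.12, 2.28 and 2.28 in their controls, as a description of the selected contrast. The level of the ratio depends on the lengths used, whereas its comparison between libraries does not. With the lengths of the mapped mRNAs, a choice made after seeing the data, the group means were 0.365 with miR-133a and 1.61 in the controls, and per 75-base fragment with no copy elsewhere they were 0.281 and 1.24. In the other 12 libraries of miRNA groups in batch 2 the ratio lay between 2.0998 and 2.66. In batch 1 it was 3.28 and 3.21 with miR-1, 2.58 and 2.69 with miR-122, and 2.51 and 2.65 with the empty vector. The miR-1 values thus lay above both other groups of the batch without overlap. No test was made of this ratio. In miR-155 replicate 2, which was high for both chains, it was 2.31, and in miR-372 replicate 2 it was 2.43.

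**Figure D3:**
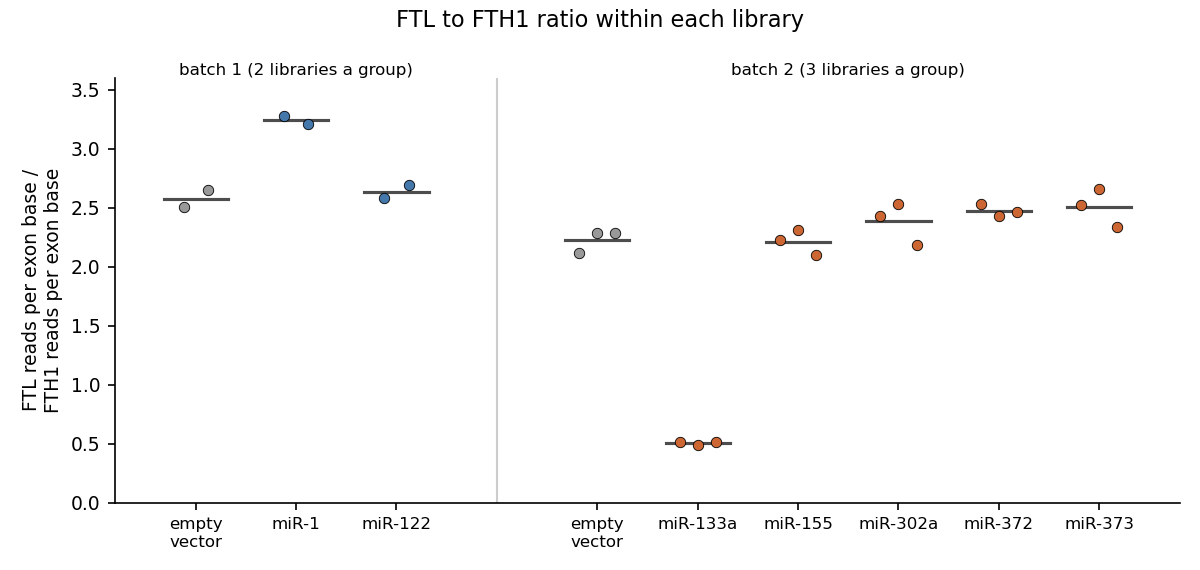
Ratio of FTL to FTH1 reads per exon base on the y axis (no unit) for each library, by group on the x axis, with a line at each group mean. The 3 miR-133a libraries lie between 0.488 and 0.515 and every other library between 2.0998 and 3.28.

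In the comparisons that did not choose the set, FTL was called only with miR-1. It was at 388 and 371 CPM with miR-1 and at 292 and 337 CPM with the empty vector, a log2 difference of 0.27 ± 0.0513 (adjusted p = 0.000808), and the adjusted p ran from 1.51e-09 to 0.0184 over 11 alternatives. Without empty vector replicate 1, the lower control library, the difference was 0.17. FTH1 was at 227 and 221 CPM with miR-1 and 223 and 243 CPM in the controls, groups that overlap, and its difference of -0.06 ± 0.0467 was not called (adjusted p = 0.37), except without empty vector replicate 1 (-0.12, adjusted p = 0.0405, in a range up to 0.964 over the alternatives). With miR-122, FTL was at 333 and 326 CPM, inside the range of the controls (log2 difference 0.07 ± 0.0516, adjusted p = 0.532). Without empty vector replicate 2 this value became 0.17 with an adjusted p of 0.0047, in a range up to 0.897 over the alternatives.

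With miR-155, FTL stood at 345, 559 and 335 CPM and FTH1 at 296, 463 and 305 CPM, all above their control libraries. The log2 fold changes were 0.44 for both genes (SE 0.142 for FTL and 0.138 for FTH1), with edgeR adjusted p of 0.0647 and 0.0572, so neither was called. Replicate 2 decided the size: without it the log2 fold changes were 0.16 for FTL and 0.20 for FTH1, with edgeR adjusted p of 0.463 and 0.397. Both were called by DESeq2, in the edgeR likelihood ratio test, without the filter on low counts, with the replicate number as a block (adjusted p = 0.0296 for FTL and 0.035 for FTH1), and without replicate 1 or replicate 3, and the adjusted p over all 13 alternatives started at 0.002 and 0.00176. In the miR-1 libraries the summed level of 6 genes of HEK293 cells was also higher than in their controls, at 1485 to 1519 CPM against 1342 to 1368 CPM, as were the fibroblast sum (14.1 to 14.9 against 12.3 to 12.4 CPM) and the muscle sum (1.07 to 1.83 against 0.870 to 0.992 CPM), and their part in the miR-1 values was not tested. The HEK293 sum was also higher in the miR-155 libraries, at 1645 to 1794 CPM against 1380 to 1392 CPM in the controls, and its part in the values of the miR-155 group was not tested. Most of the HEK293 sum was 1 gene, VIM, at 908 to 1163 CPM in batch 1 and 960 to 1310 CPM in batch 2. A shift of the sum thus need not be a shift of all 6 genes, whose single levels were not compared between groups.

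With the 3 shared-seed miRNAs, FTL was above the control libraries of batch 2 in each library, at 368, 372.1 and 366, at 363, 462 and 354, and at 380.5, 383 and 351 CPM. The log2 differences were 0.28 with miR-302a, 0.37 with miR-372 and 0.29 with miR-373 (SE 0.142 in each), and none was called in edgeR (adjusted p = 0.248, 0.102 and 0.302). When the fit was restricted to the pair of groups, the adjusted p was 0.0377 with miR-302a and 0.0203 with miR-373, and with miR-372 the call was made without the filter on low counts (0.0102) and with the replicate block (0.0482). These comparisons share their 3 control libraries, at 296 to 315 CPM. FTH1 had log2 fold changes of 0.18, 0.22 and 0.12 with the same miRNAs, and edgeR called none (adjusted p = 0.442, 0.327 and 0.73).

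PCBP1, the chaperone that delivers iron to ferritin, was called in no comparison by edgeR. Its libraries ran from 252 to 273 CPM in batch 1 and from 260 to 389 CPM in batch 2, where miR-372 replicate 2 was the highest, as it was for FTH1 and FTL within the miR-372 group. Its log2 fold changes lay between 0.01 with miR-1 and 0.20 with miR-372 in the comparisons tested against the empty vector. The 95% interval for miR-1 was -0.08 to 0.10.

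TFRC, the receptor that takes up transferrin, moved in opposite directions with the miRNAs of batch 1. It was at 232 and 230 CPM with miR-1, at 161 and 178 CPM with miR-122, and at 205 and 196 CPM with the empty vector, and these 3 groups do not overlap. On the log2 scale TFRC was higher by 0.21 ± 0.0464 with miR-1 (adjusted p = 0.00311, called in all 11 alternatives), and the difference with miR-122 was -0.24 ± 0.0472 (adjusted p = 0.00305). The call with miR-122 rested on replicate 1, without which the value was -0.17 (adjusted p = 0.159, in a range from 4.03e-05 over the 11 alternatives). In the miR-122 libraries the sum of 6 HEK293 genes was lower than in the controls, at 1263 to 1296 against 1342 to 1368 CPM, and the fibroblast sum was higher, at 14.7 to 15.7 against 12.3 to 12.4 CPM, and their part in the TFRC value was not tested. TFRC holds the miR-122 7mer-m8 in its coding region printed above, and no miR-1 match was found in its coding region or 3′UTR. Its coding region also holds a miR-155 7mer-m8, and with miR-155 its log2 fold change was -0.0005 (edgeR adjusted p = 0.999). In batch 2 its libraries ran from 134 to 215 CPM, both in the miR-302a group. The log2 fold changes lay between -0.09 and 0.07 in the 4 comparisons tested against the empty vector, each with an edgeR adjusted p of 0.749 or more.

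SLC11A2, the endosomal iron transporter, was lower with miR-155. Its libraries were at 42.2, 39.6 and 49.1 CPM with miR-155 and at 65.2, 66.8 and 62.3 CPM with the empty vector. The groups do not overlap, and the log2 difference was -0.57 ± 0.0814 (adjusted p = 0.000163), 0.674 times the control level. It was called in all 13 alternatives, with values from -0.66 to -0.50 and adjusted p up to 0.00709. The miR-155 7mer-m8 in its 3′UTR is printed above. Every other group of batch 2 stayed between 60.6 and 73.6 CPM.

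SLC11A2 was also lower with miR-1, at 63.5 and 61.4 CPM against 73.1 and 70.6 CPM, again without overlap. The log2 difference was -0.20 ± 0.0505 (adjusted p = 0.00668), but it was not called by DESeq2 (adjusted p = 0.0587) or without miR-1 replicate 2 (0.0833), the highest over the alternatives, which started at 0.00218. Its 3′UTR holds a 7mer-A1 for miR-1, and 24.1% of 3′UTRs held an 8mer or 7mer of any type for that miRNA. With miR-122 it was at 68.8 and 71.4 CPM, near its controls (log2 difference -0.03 ± 0.05, adjusted p = 0.769).

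SLC40A1, the only known exporter of iron from cells, was called in no comparison by edgeR. In batch 2 it was at 4.80, 3.89 and 5.73 CPM with the empty vector, at 3.79, 4.70 and 3.13 CPM with miR-302a, at 4.15, 4.62 and 3.53 CPM with miR-372, and at 3.94, 3.67 and 4.38 CPM with miR-373. All of these groups overlap the control. Its 3′UTR holds a pair of 7mer-m8 matches to their shared seed, at chr2:190425964-190425970 and chr2:190425433-190425439 (minus strand), and 26.2% of 3′UTRs held an 8mer or 7mer-m8 for it. The log2 fold changes were -0.30, -0.25 and -0.25 with 95% intervals of -0.74 to 0.14, -0.68 to 0.19 and -0.68 to 0.18, so at this depth the data do not separate no change from falls of that size.

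IREB2 and ACO1 encode the proteins that bind iron-responsive elements, and ACO1 is an aconitase when it carries its iron-sulphur cluster. ACO1 was higher with miR-1, at 61.9 and 61.0 CPM against 55.0 and 50.8 CPM in the controls, without overlap. The log2 difference was 0.22 ± 0.0558 (adjusted p = 0.00773), and the call was lost without miR-1 replicate 1 (0.0625) and without empty vector replicate 2 (0.0537), in a range from 0.000965. In the other comparisons tested against the empty vector ACO1 lay between -0.10 with miR-155 and 0.15 with miR-373 and was not called by edgeR.

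IREB2 was at 217 and 209 CPM with miR-1, at 177 and 186 CPM with miR-122, and at 204 and 191 CPM with the empty vector, so the miRNA groups lay on either side of the control. Neither difference from the control was called, at 0.11 ± 0.0447 (adjusted p = 0.0847) and -0.12 ± 0.0452 (adjusted p = 0.136) on the log2 scale. Without empty vector replicate 1 the first was called (0.00905), and without empty vector replicate 2 the other was (0.01), and over all alternatives their adjusted p reached 0.405 and 0.619. In the comparisons of batch 2 tested against the empty vector its log2 fold changes lay between -0.13 with miR-155 and 0.01 with miR-373, none called by edgeR. Its coding region holds the miR-155 8mer named above, and the edgeR adjusted p with miR-155 was 0.401.

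**Figure D4:**
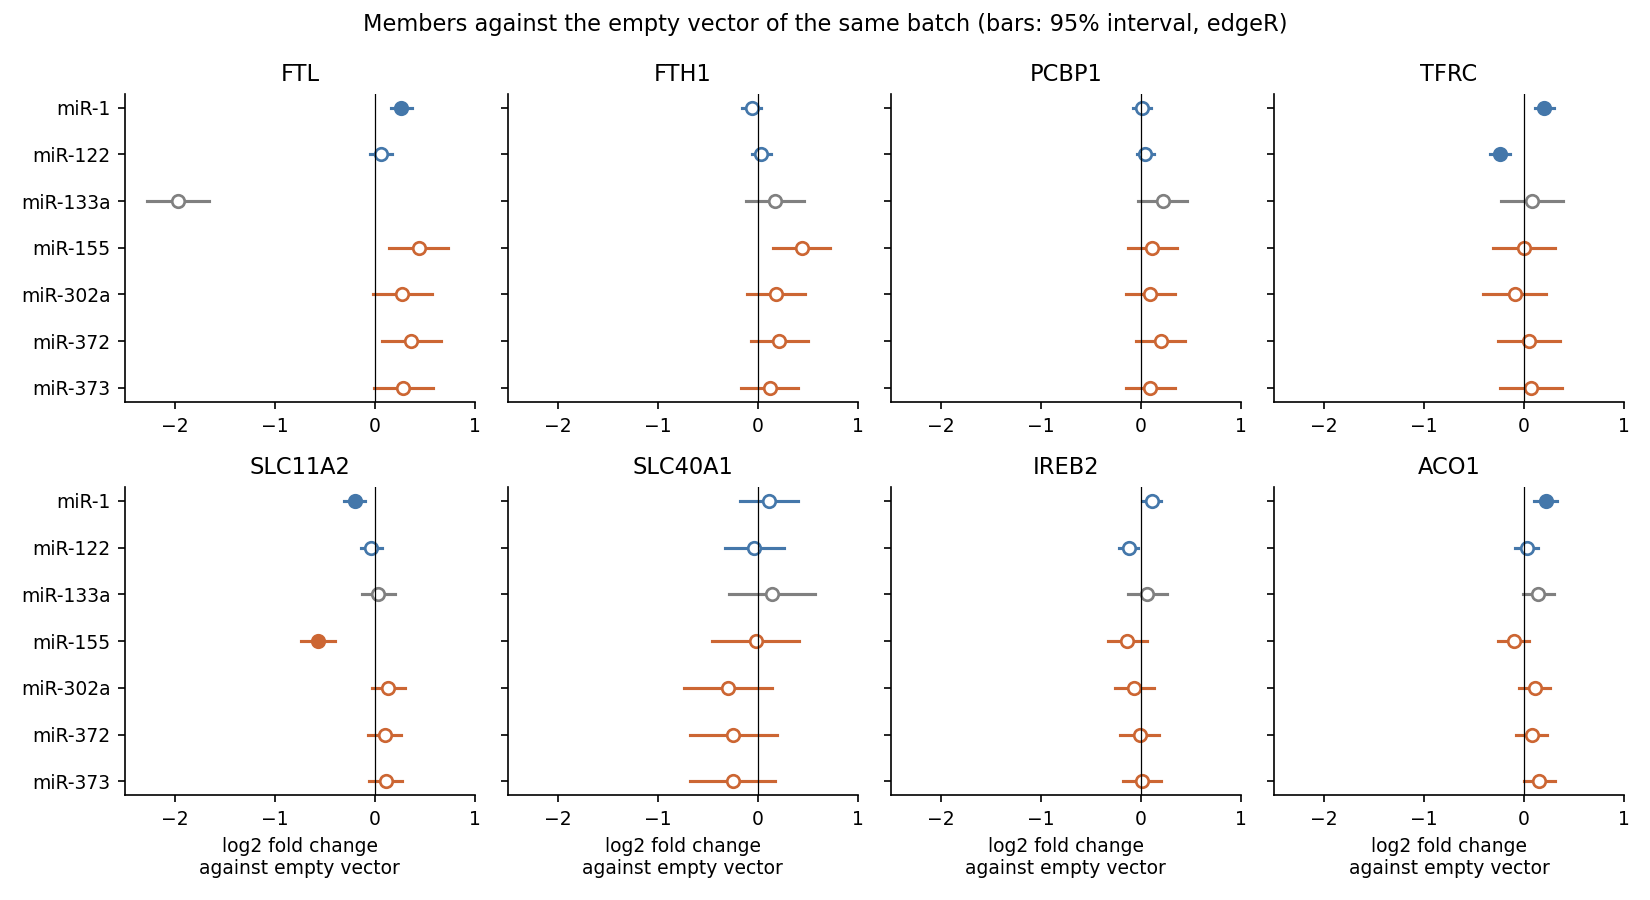
Log2 fold change of each of the 8 members against the empty vector of its batch on the x axis, by miRNA on the y axis, with 95% intervals from edgeR. Filled points passed the adjusted threshold of 0.05, open points did not, and the miR-133a values (grey, open) are a description because that contrast chose the set. Apart from FTL with miR-133a at -1.97, SLC11A2 with miR-155 at -0.57 is the lowest value.

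The direct comparison of miR-1 with miR-122 sets their libraries against each other. Of 8 members, 1 was lower and 4 were higher with miR-1, where 31.2% of all tested genes were called. Among the members TFRC had the largest log2 difference, 0.44 ± 0.0469 (adjusted p = 6.5e-07), and it was called in all 11 alternatives with an adjusted p of at most 0.00032. IREB2 was higher by 0.23 ± 0.045 (adjusted p = 0.000708) and was also called in all 11, up to 0.0338. FTL (0.20, adjusted p = 0.00517), ACO1 (0.19, adjusted p = 0.0139) and SLC11A2 (-0.17, adjusted p = 0.0173) were called by edgeR, in 9, 7 and 7 of the 11 alternatives. The FTL call was lost without miR-1 replicate 1 (0.0675) or miR-122 replicate 2 (0.0739). The ACO1 and SLC11A2 calls were lost without either miR-1 library or miR-122 replicate 2, with adjusted p of up to 0.148 and 0.15, and in DESeq2 (0.0844 and 0.112).

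The 3 miRNAs with 1 seed were compared with each other in 3 pairs. The share of genes called was 0% in each pair and 0 of 8 members were called by edgeR or DESeq2, while over all genes at most 184 had an unadjusted p under 0.05 and DESeq2 called at most 3. The members' log2 fold changes ran from -0.16 for TFRC between miR-302a and miR-373 to 0.10 for PCBP1 between miR-372 and miR-373. The 95% intervals reached from -0.49 to 0.44, so differences of that size between the miRNAs were not separable for every member.

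Another 70 genes of iron metabolism were listed by role, and all were found in the count tables, of which 61 passed the filter on low counts. The counts of lower and higher genes among the 61 were 1 and 5 with miR-1, 3 and 1 with miR-122, 1 and 3 with miR-155, 4 and 1 with miR-302a, 5 and 5 with miR-372, and 3 and 1 with miR-373. As shares these were 9.84%, 6.56%, 6.56%, 8.20%, 16.4% and 6.56%, to be set against the shares of all genes given above. With miR-133a, in the contrast that chose the set, 1 of the 61 crossed the threshold, FLVCR1, described as a haem exporter, which was named after its value was seen. It was at 67.1 ± 3.98 CPM in the controls and 55.1 ± 2.05 CPM with the miRNA (SD, n = 3).

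Of 9 tested genes of uptake and the transferrin cycle, 3 were lower and 0 higher with each of the 3 shared-seed miRNAs, where the share lower over all genes was 4.85% with miR-302a, 6.56% with miR-372 and 3.30% with miR-373. The 3 were CYBRD1, HFE and STEAP2 each time, against the same 3 control libraries. CYBRD1, a ferric reductase, was at 20.8, 18.2 and 20.001 CPM with the empty vector, at 7.44, 7.16 and 8.70 CPM with miR-302a, at 7.26, 5.25 and 7.10 CPM with miR-372, and at 6.71, 6.38 and 8.09 CPM with miR-373. All 9 miRNA libraries lay far below the controls, and the log2 differences were -1.34 ± 0.133, -1.57 ± 0.133 and -1.46 ± 0.13 (adjusted p = 3.09e-06, 3.89e-07 and 1.13e-06), called in all 13 alternatives each. Its 3′UTR holds 1 8mer and 3 7mer-m8 matches to the shared seed.

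HFE, a partner of the transferrin receptor, ran from 1.85 to 2.38 CPM in the controls and from 0.432 to 0.840 CPM in the 9 libraries of these miRNAs, without overlap. Its log2 differences were -1.39 ± 0.304, -1.78 ± 0.311 and -1.87 ± 0.304 (adjusted p = 0.00777, 0.000981 and 0.000954), on 6 to 34 reads a library, and they were called in all 12 alternatives that tested it. STEAP2, a metalloreductase, ran from 38.5 to 40.7 CPM in the controls and from 27.8 to 32.5 CPM in the same 9 libraries, with log2 differences of -0.36 ± 0.077, -0.41 ± 0.0767 and -0.34 ± 0.0762 (adjusted p = 0.00616, 0.00187 and 0.0113), of which the last was called in 10 of 13 alternatives and lost its call without empty vector replicate 2 (0.05) or miR-373 replicate 1 (0.0577). The fibroblast sum was also higher in these 9 libraries, at 16.2 to 25.7 CPM against 11.6 to 14.9 CPM in the controls, and nearly all of it was COL1A1, since COL1A2 was at 0 in 16 and DCN in 15 of the 18 libraries of batch 2. The sum of 4 muscle genes was higher as well, at 1.07 to 2.53 CPM against 0.659 to 0.909 CPM, and their part in these values was not tested. Lower values were not confined to these 3 miRNAs. STEAP2 was at 34.5, 33.9 and 33.7 CPM with miR-133a and at 35.8, 33.5 and 37.3 CPM with miR-155. All of these lay below the same controls. With miR-155, HFE (1.76, 1.61 and 0.708 CPM) and CYBRD1 (18.1, 15.5 and 16.8 CPM) also lay below every control library. None of these differences was called by edgeR. HFE holds 1 8mer and 1 7mer-m8 to the seed in its 3′UTR, and none was found in that of STEAP2. The 8mers of CYBRD1 (chr2:172412176-172412183, plus strand) and HFE (chr6:26095308-26095315, plus strand) are shown with the match in capitals, and 4.27% of 3′UTRs held such an 8mer.
CYBRD1 3′UTR: gtactcacacAGCACTTActatgctcca
HFE 3′UTR: ggatgataaaAGCACTTActtcgtgtcc

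Among the other mRNAs with an iron-responsive element, EPAS1, which encodes the hypoxia factor HIF2A, was higher with the same 3 miRNAs. It was at 8.48 to 10.4 CPM in the controls and at 11.8 to 18.1 CPM in the 9 libraries, and the log2 differences were 0.52 ± 0.148, 0.63 ± 0.146 and 0.75 ± 0.145 (adjusted p = 0.0359, 0.00855 and 0.00396). The call was kept in 8, 11 and 13 of 13 alternatives, and with miR-302a it was lost without any 1 of the control libraries, the adjusted p reaching 0.145. EPAS1 also lay above every control library with miR-133a, at 13.9, 10.9 and 12.7 CPM. With miR-155 it lay below every control library, at 7.31, 6.12 and 6.66 CPM. Neither difference was called by edgeR. The 3′UTR of EPAS1 holds 1 7mer-m8 for this seed, at chr2:46613298-46613304 (plus strand). CUL1, a scaffold of the ubiquitin ligase that degrades IREB2, was lower by 0.26 and 0.28 on the log2 scale with miR-302a and miR-372 (adjusted p = 0.0311 and 0.0181), calls kept in 6 and 9 of 13 alternatives with an adjusted p of up to 0.177 and 0.064, and it holds 2 7mer-m8 matches to the seed in its 3′UTR. CUL1 also lay below every control library (153 to 158 CPM) with miR-373, at 135, 147 and 130 CPM. The same held with miR-155, which has another seed, at 141, 143 and 139 CPM. Neither was called by edgeR. With miR-122, FURIN, a protease, was higher by 0.28 on the log2 scale (adjusted p = 0.000287, called in all 11 alternatives). CDC42BPA, a kinase, and CYBRD1 had log2 differences of -0.21 and -0.32 with miR-122 (adjusted p = 0.0422 and 0.0354), calls kept in 6 and 7 of 11 alternatives and lost without either miR-122 library, the adjusted p reaching 0.417 and 0.306. For miR-122, the 3′UTR of CYBRD1 holds 1 8mer and 1 7mer-m8, that of CDC42BPA 1 7mer-A1, and that of FURIN none. Of 3′UTRs, 3.68% held a miR-122 8mer. Without empty vector replicate 1 the CDC42BPA value was -0.09 (adjusted p = 0.374).

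**Figure D5:**
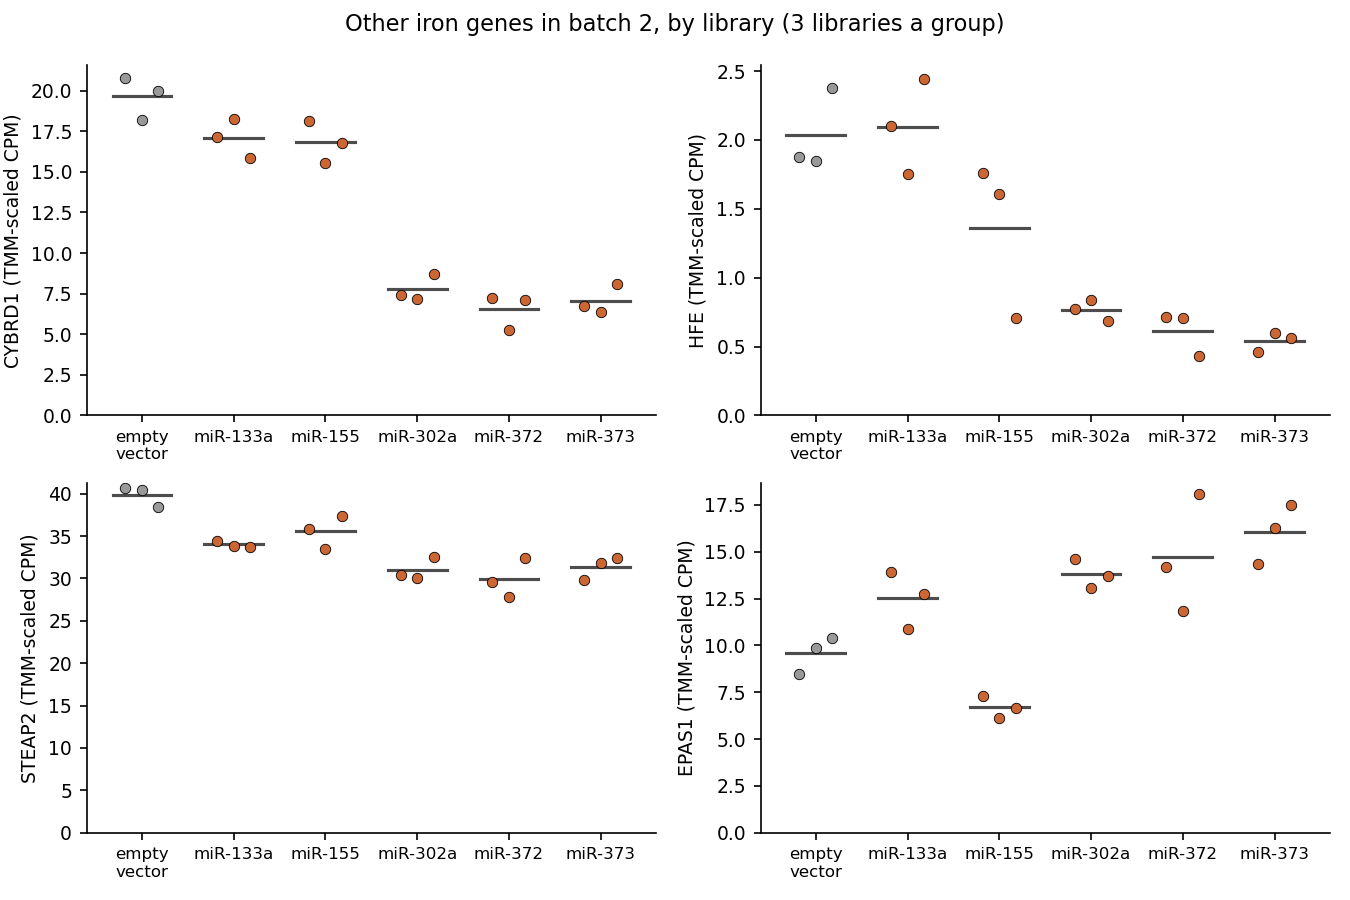
CYBRD1, HFE, STEAP2 and EPAS1 in TMM-scaled CPM on the y axis for each library of batch 2, by group on the x axis, with a line at each group mean and the empty vector in grey. All 9 libraries of the 3 shared-seed miRNAs lie below the controls for the first 3 genes and above them for EPAS1.

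In haem synthesis and turnover, HMOX1, the inducible haem oxygenase, was at 23.6, 40.5 and 18.6 CPM with miR-372 and 11.6, 14.6 and 16.3 CPM in the controls, groups that do not overlap. Its log2 difference of 0.94 ± 0.297 (adjusted p = 0.047) was called in 6 of 13 alternatives, and without miR-372 replicate 2 it was 0.56 (adjusted p = 0.248). All HMOX1 libraries of miR-155 (21.3 to 33.2 CPM) and of miR-302a (16.5 to 34.6 CPM) also lay above the same controls, without a call by edgeR. UROD, an enzyme of haem synthesis, was higher with miR-372 by 0.42 on the log2 scale (adjusted p = 0.00558, called in all 13 alternatives), and BLVRB, a biliverdin reductase, with miR-155 by 0.43 (adjusted p = 0.0221, called in 9 of 13, and up to 0.0917 without miR-155 replicate 2). In mitochondrial iron and iron-sulphur cluster assembly, FDXR, the ferredoxin reductase, was higher with miR-155 by 0.42 (adjusted p = 0.00774, called in all 13). GLRX5 and NUBP1, cluster assembly factors, were higher with miR-372 by 0.37 and 0.33 (adjusted p = 0.0492 and 0.0244), each called in 8 of 13, and without miR-372 replicate 2 the values were 0.21 and 0.27 (adjusted p = 0.274 and 0.106). For UROD, FDXR, GLRX5 and NUBP1, every library of miR-302a and of miR-373 also lay above every control library, without a call by edgeR. UROD ran from 111 to 127 and from 115 to 121 CPM there, against 95.4 to 103 CPM in the shared controls. With miR-133a, UROD (109, 123 and 115 CPM) and GLRX5 (105, 123 and 114 CPM) also lay above every control library. NUBP1 did so with miR-155, at 40.3, 48.1 and 38.2 CPM. None of these was called by edgeR. In batch 1, GLRX5 was higher with miR-1 by 0.16 (edgeR adjusted p = 0.032), called in 6 of 11 alternatives. NEO1, a receptor for hemojuvelin in the hepcidin pathway, had a log2 difference of -0.37 with miR-155 (adjusted p = 0.0472, called in 8 of 13, and up to 0.215 without empty vector replicate 2). Its 3′UTR holds 1 7mer-m8 for miR-155. NEO1 also lay below every control library with miR-133a, at 123, 114 and 123 CPM, without a call by edgeR. No 8mer or 7mer for the shared seed was found in the 3′UTRs of HMOX1, UROD, GLRX5 and NUBP1. None for miR-155 was found in those of BLVRB and FDXR. Of 7 tested genes of storage, chaperones and ferritin turnover, 0 were called by edgeR or DESeq2 in a comparison with the empty vector. At an unadjusted p under 0.05 edgeR gave at most 2, with miR-155 and with miR-372, where 3340 and 3752 of all 14054 genes passed.

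The genes whose log2 CPM over the 18 libraries of batch 2 was most like that of FTL, among the 7014 genes averaging 5 or more on that scale, were CLTA (Pearson r = 0.985), SEC61B (0.982), PNP (0.982), UBA2 (0.979) and SCOC (0.978). For FTH1 they were NDUFB11 (0.953), PTP4A2 (0.948) and MRPL37 (0.943), and for TFRC GFM1 (0.880), MAPK6 (0.873) and DHX9 (0.862). The libraries share groups and depth, and the FTL values contain the contrast that chose the set. Without the 3 miR-133a libraries, 0 of the 5 genes most like FTL were among the top 5, which were a gene with no symbol (0.972), PFN1 (0.967), TUBA1C (0.957), MRPL58 (0.955) and GLRX3 (0.955), the last a glutaredoxin in the list of storage and chaperones. For FTH1 they were then ARPC1A (0.984), ATP5PO (0.964) and NDUFB11 (0.957), and for TFRC POLR3C (0.942), PPP4R3A (0.920) and MAPK6 (0.911).

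Library totals ranged from 20153452 to 21595191 counted reads in batch 1 and from 13047400 to 35040778 in batch 2. The 6 genes of HEK293 cells summed to 1263 to 1794 CPM over all groups, most of it VIM, and 4 blood cell genes to at most 0.181 CPM. Sums were at most 1.297 CPM for 2 endothelial genes and 0.491 CPM for 3 hepatocyte genes.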

How the data were processed

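The deposited files used were 2 tables of raw exon counts per gene, 1 for each batch. Per the study's methods and the submitters' processing notes, the authors clipped adapters with fastx_clipper, aligned reads to hg19 with TopHat2 2.1.1 and counted uniquely placed reads over exons by strand with featureCounts, so the counts were deposited without normalization. The authors' edgeR 3.24.3 tables of fold changes and p-values were not used.

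Here genes were named from GENCODE 44 by identifier (28543 of 29794 matched), filtered with filterByExpr (minimum count 10), scaled by TMM and fitted with edgeR 4.0.16 quasi-likelihood, all groups of a batch in 1 fit with no covariate and a prior count of 0.125. The filter left 14348 genes in batch 1 and 14054 in batch 2. The Benjamini-Hochberg adjustment covered every gene tested, and intervals are 95%. The members and gene lists were chosen with earlier results of these data known. Other iron genes are named by the largest absolute change among those called, at most 3 a list, and 1 gene that the rule names is not reported here. Of the 70, 2 older symbols were matched through RefSeq synonyms. DESeq2 1.42.0 served as an alternative. Chi-square divided by its degrees of freedom was 1.83 to 35.7 between replicates, beyond sampling noise. The code was tested on simulated data. Reads carry no molecular identifiers, so copies of 1 molecule cannot be told apart, and precision may be lower than the number of reads alone would give. Between miR-302a and miR-372, same-numbered replicates deviated together (correlations 0.227, 0.336 and 0.161), and in no other comparison did all pairs exceed 0.1.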

Additional observations from a re-analysis of the deposited data

Results flagged for a closer look

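The direct comparison of miR-1 with miR-122 differed for 5 of the 8 members, by the test of the difference itself in edgeR. On the log2 scale, miR-1 minus miR-122, the values were 0.44 for TFRC, 0.23 for IREB2, 0.20 for FTL, 0.19 for ACO1 and -0.17 for SLC11A2. TFRC and IREB2 lay on opposite sides of the empty vector with the 2 miRNAs, with log2 fold changes of 0.21 and -0.24 for TFRC and of 0.11 and -0.12 for IREB2. With miR-122 against the empty vector, FTL (0.07, adjusted p = 0.532) and ACO1 (0.03, adjusted p = 0.848) were not called by edgeR. TFRC and IREB2 were called between the miRNAs in all 11 alternatives, FTL in 9, and SLC11A2 and ACO1 in 7 each, and DESeq2 did not call SLC11A2 (adjusted p = 0.112) or ACO1 (0.0844). Of all tested genes, 31.2% were called in the same comparison. Groups hold 2 or 3 libraries, too few for a test of single outlying samples.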

How the results depend on the processing

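Outside the contrast that chose the set, of 992 member values under alternatives 896 kept their sign and call, 60 changed sign without a call in either fit, 15 calls were lost, 21 were gained and 0 reversed; changed calls touched 16 of 80 pairs of a member and a comparison. The cause of these changes was not tested. Counts against the empty vector follow, first of the 8 members, then of the other 61 iron genes. Members called with miR-155 went from 1 to 3 by the likelihood ratio test, DESeq2, without the filter on low counts and with the replicate block (1 to 3 leaving out each library). With miR-372 they went from 0 to 1 without the filter and with the replicate block, and in fits of 2 groups from 0 to 1 with miR-302a and with miR-373. As a description only, 2 members (FTL and PCBP1) crossed the threshold with miR-133a in that fit. With miR-122 they ran from 0 to 3 around 1 leaving out each library, and between miR-1 and miR-122 from 2 to 5 around 5, with 3 by DESeq2. Iron genes called with miR-1 (6) became 10 by the likelihood ratio test, 2 by DESeq2 and 3 to 9 leaving out each library, and with miR-122 (4) became 1 by DESeq2, 2 with the replicate block and 1 to 7. With miR-133a (1) they became 2 by the likelihood ratio test, 0 without the filter, 2 above 1 CPM in every library, 6 with the replicate block, 3 by DESeq2, 13 in the fit of 2 groups and 0 to 1. With miR-155 (4) they became 7 without the filter, 8 with the replicate block and 1 to 3, with miR-302a (5) 8 with the replicate block and 3 to 8, with miR-372 (10) 4 in the fit of 2 groups and 4 to 11, and with miR-373 (4) 7 in the fit of 2 groups. Over all genes, DESeq2 called 1726, 395 and 2462 for miR-1, miR-122 and the comparison of both, against 3520, 849 and 4481. The replicate block called 1308, 1663 and 1122 with miR-133a, miR-155 and miR-373 against 750, 1073 and 721, and fits of 2 groups called 2303 with miR-133a and 807 with miR-372 (1599). Leaving out each library gave 1817 to 3465 with miR-1, 308 to 1591 with miR-122, 375 to 481 with miR-133a, from 496 upward with miR-155, 482 to 1776 with miR-302a, 857 to 1833 with miR-372, 348 to 498 with miR-373 and 2504 to 2954 for miR-1 against miR-122. Only between miR-302a and miR-372 did same-numbered replicates correlate above 0.1 in every pair, and there the block called 0 genes (204 at an unadjusted edgeR p under 0.05). Single correlations were high elsewhere, at 0.575 and 0.386 between miR-302a and miR-373 (replicates 2 and 3). Between miR-372 and miR-373 they were 0.356 and 0.505 (replicates 2 and 3). What same-numbered replicates share was not tested. With all annotated 3′UTRs or with 7mer-A1 matches, 6 rather than 3 pairs of a member and a seed had a site. SLC40A1 was limited by its 41 to 184 reads, and FTL and FTH1 by sequence they share with copies.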
